A study of Rattus norvegicus with 6 samples.

Results

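The small RNA libraries of rat hippocampus listed 765 mature microRNAs (miRNAs) in each of 2 libraries, 1 from the group given benzo[a]pyrene (B[a]P) and 1 from the control group, out of 6 libraries in the series. All 765 entries were described. RPM gives a miRNA's reads relative to the total of reads counted for its library. The 332 entries that reached 10 RPM in at least 1 library were compared. The emphasis was on the make-up of the miRNA pool, on the use of the 5p and 3p arm of each precursor, and on miRNAs listed in a single library.

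The animals were Sprague-Dawley rats with a labelled age of 7 weeks. The B[a]P group was dosed with 2.0 mg/kg in corn oil by oral gavage every day, and the control group received corn oil only. A gavage of 7 weeks is stated for the RNA-seq libraries alone, so the age at sampling is not certain. B[a]P is a polycyclic aromatic hydrocarbon of smoke and grilled food that is turned into DNA-binding metabolites. The labels do not say whether a library came from 1 animal or from pooled tissue. With 1 library per group no difference has a replicate check, every comparison is between these libraries and not between the treatments, and no p-value is given.

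A miRNA is cut from a hairpin precursor, and either arm of the hairpin, 5p or 3p, can be loaded into an Argonaute protein to guide it to messenger RNAs. Pairing rests mainly on the seed, bases 2 to 8 of the mature miRNA, so miRNAs with the same seed share many targets. In the brain a few neuronal and glial miRNAs make up most of the pool, and the epithelium of the choroid plexus and the ciliated ependyma have miRNAs of their own. In bulk tissue, fewer cells of a type and less RNA per cell cannot be told apart.

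Mature sequences were taken from RefSeq (assembly GRCr8), which matched 690 of the 765 names and covered 92.3% (B[a]P) and 92.4% (control) of miRNA reads. Capitals mark the seed. The first set holds abundant miRNAs of the pool.
miR-9a-5p: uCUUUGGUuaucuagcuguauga
miR-128-3p: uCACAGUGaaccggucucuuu
miR-7a-5p: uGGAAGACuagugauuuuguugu
miR-26a-5p: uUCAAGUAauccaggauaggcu
let-7g-5p: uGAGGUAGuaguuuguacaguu
let-7f-5p: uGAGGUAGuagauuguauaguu

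The next set holds the miRNAs that stood highest in the B[a]P library relative to the control library, with relatives that share a seed. miR-204-5p and miR-211-5p have the seed UCCCUUU and differ at 1 of 22 bases. miR-34c-5p and miR-34b-5p have the seed GGCAGUG, also that of miR-34a-5p and miR-449a-5p, and differ from each other at 2 of 23 bases.
miR-1298: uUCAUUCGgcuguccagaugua
miR-448-3p: uUGCAUAUguaggauguccca
miR-1912-3p: cACAGAACaugcagugaga
miR-204-5p: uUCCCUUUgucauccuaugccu
miR-211-5p: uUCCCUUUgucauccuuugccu
miR-204-3p: gCUGGGAAggcaaagggacguu
miR-34c-5p: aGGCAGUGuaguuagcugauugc
miR-34b-5p: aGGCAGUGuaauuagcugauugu
miR-34a-5p: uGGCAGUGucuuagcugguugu
miR-449a-5p: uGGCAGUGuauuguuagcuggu
miR-34c-3p: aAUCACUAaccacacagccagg
miR-34b-3p: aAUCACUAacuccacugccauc
miR-375-3p: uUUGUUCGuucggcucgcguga

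The last set shows entries whose genomic positions lie on opposite strands of the same DNA, so that each is complementary to its partner. They are printed because several results rest on how reads were divided between such partners.
let-7a-5p: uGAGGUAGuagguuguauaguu
miR-3596a: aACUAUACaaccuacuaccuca
miR-125b-5p: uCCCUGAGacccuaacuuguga
miR-3588: uCACAAGUuagggucucaggga
miR-183-5p: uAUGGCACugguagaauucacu
miR-3553: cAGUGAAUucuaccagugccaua
miR-122-5p: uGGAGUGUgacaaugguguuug
miR-3591: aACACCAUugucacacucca

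Both libraries were deeply read. The values corresponded to 14360375 reads in the B[a]P library, of which 6737677 (46.9%) were assigned to miRNAs, and to 16266392 reads in the control library, of which 6039463 (37.1%) were. All values above 0 came out as whole reads, within 0.01 of a read, and none was under 10 reads, so 0 can stand for up to 9 reads. The library totals were worked out from the worth of 1 read, and which reads they count was not established. RPM as deposited, whose denominator is this total, was higher in the B[a]P library across the table. The median difference was 0.36 on the log2 scale. Levels below are therefore RPM scaled by the median of ratios, which removed this shift, and differences are log2(scaled RPM + 1), B[a]P minus control. Intervals are exact 95% intervals for read numbers and cover counting error only. Choroid plexus and cilia markers differed in opposite directions in the miRNA-seq and RNA-seq libraries, as described at the end, so each direction below is that of the libraries as labelled.

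The pool was dominated by the same few miRNAs in both libraries. miR-9a-5p, which acts in neural progenitors and neurons, was the most abundant, at 20.4% of miRNA reads in the B[a]P library and 22.4% in the control library. miR-128-3p, a neuronal regulator of excitability, followed with 6.66% and 6.49%. miR-7a-5p, of neurons and endocrine cells, held 4.65% and 5.21%. Next came miR-26a-5p (4.15% and 3.90%) and miR-99a-5p (4.05% and 3.88%), then let-7g-5p, let-7f-5p, miR-127-3p, let-7i-5p and miR-30a-5p. These 10 were the top 10 in both libraries, and the top 50 shared 47 members.

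**Figure D1:**
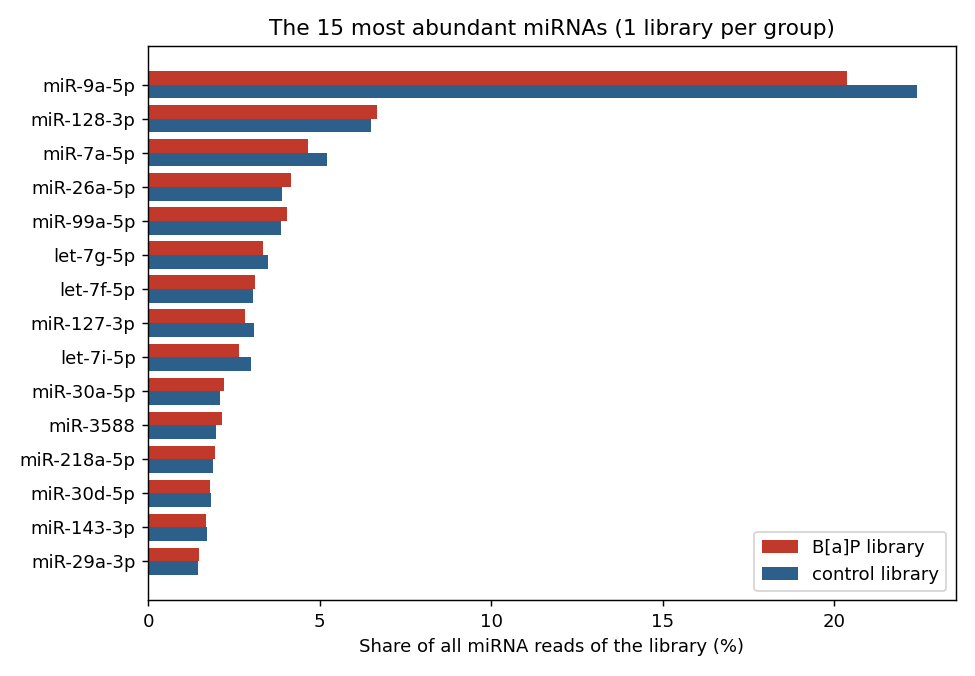
Share of all miRNA reads of the library, in percent, for the 15 most abundant miRNAs, with 1 bar for the B[a]P library and 1 for the control library. miR-9a-5p stands far above the rest at 20.4% and 22.4%, and miR-128-3p is next at 6.66% and 6.49%.

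The 10 most abundant miRNAs took 54.0% of reads in the B[a]P library (54.0% to 54.1%) and 56.6% in the control library (56.6% to 56.7%). It took 9 miRNAs to reach 50% of reads in the B[a]P library and 8 in the control library, 57 and 55 to reach 90%, and 197 and 193 to reach 99%. The effective number of miRNAs, the exponential of the Shannon entropy, was 46.1 and 42.1. The B[a]P pool was thus slightly more even than the control pool.

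Most listed miRNAs contributed few reads. In the B[a]P library 490 entries were above 0 and in the control library 484, 471 of them in both, and 262 were at 0 in both. As deposited, 61 entries (B[a]P) and 50 (control) reached 1000 RPM, and 161 and 175 lay above 0 but under 10 RPM, together 0.127% and 0.161% of miRNA reads. Entries named 5p held 66.4% and 67.4% of reads, entries named 3p 27.4% and 27.2%, and entries with no arm in the name 6.28% and 5.37%.

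Related miRNAs add up to larger shares. The seed GAGGUAG of the let-7 family and miR-98, which restrains growth and marks differentiated cells, held 11.5% and 11.7% over 9 entries, 8 of them with reads. The miR-30 family, summed by name over both arms, held 7.10% and 6.83%, and the miR-99/100 and miR-125 families 6.73% and 6.39%. The latter sum counts miR-125b-5p at 0 and leaves out its complement miR-3588, at 2.15% and 1.97%. These families therefore cannot be ranked against the miR-30 family. The seed GGAAGAC of miR-7a-5p and miR-7b held 5.21% and 5.89%. Seeds were not ranked, because abundant entries such as miR-99a-5p and miR-30d-5p had no matched sequence. miR-124-3p, a hallmark neuronal miRNA, held 0.502% and 0.506% and ranked 36 by mean level. Small RNA libraries favour some sequences in ligation, so shares of different miRNAs are shares of reads, not of molecules.

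Among the abundant entries was miR-3588, at 2.15% and 1.97% of reads, which has the same ends as miR-125b-5p on the other strand. miR-125b-5p, an abundant brain miRNA, was listed at 0 in both libraries, while miR-3588 had 144822 and 119234 reads. let-7a-5p was likewise listed at 0 in both, and miR-3596a, its complement, had 55792 and 45256 reads. let-7a-5p differs from let-7f-5p and from let-7c-5p at 1 of 22 bases each.

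Entries of this kind were frequent. In GRCr8, 46 pairs of entries overlapped by 15 bases or more on opposite strands, 92 entries in all, which held 34.8% of miRNA reads in the B[a]P library and 36.3% in the control library. In 8 pairs both partners had the same ends, and in all 8 one partner was listed at 0 in both libraries. Besides miR-125b-5p and let-7a-5p, the partners at 0 were miR-369-5p, miR-382-3p, miR-181a-1-3p, miR-210-3p, miR-539-5p and miR-378a-5p. The other 38 pairs had ends that differed, 33 of these had reads, and 24 had both partners above 0 in both libraries. In 5 pairs with differing ends, among them miR-126a-5p with miR-126b, one partner was at 0 in both libraries although the other had reads.

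In 13 pairs with differing ends both partners were compared at 10 RPM. Their log2 differences between the libraries lay a median of 0.07 and at most 0.14 apart, with opposite signs in 3 pairs, and 89.2% of all compared miRNAs lay within 1.25-fold. miR-9b-3p, complementary to part of miR-9a-5p, had 70535 and 63846 reads. miR-218b had 17270 and 15041 reads beside 130734 and 113235 of miR-218a-5p, and miR-29c-3p had 1414 and 1265 beside 1436 and 1253 of its complement miR-3556b. Whether the counting used strand is not given in the sources used here, so reads of a miRNA and of its partner cannot be told apart. Adding each partner of the GAGGUAG seed that is named miR-3596 (4 entries) would put the let-7 reads at 12.6% and 12.7%, and adding miR-9b-3p would put miR-9a-5p at 21.4% and 23.5%.

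**Figure D2:**
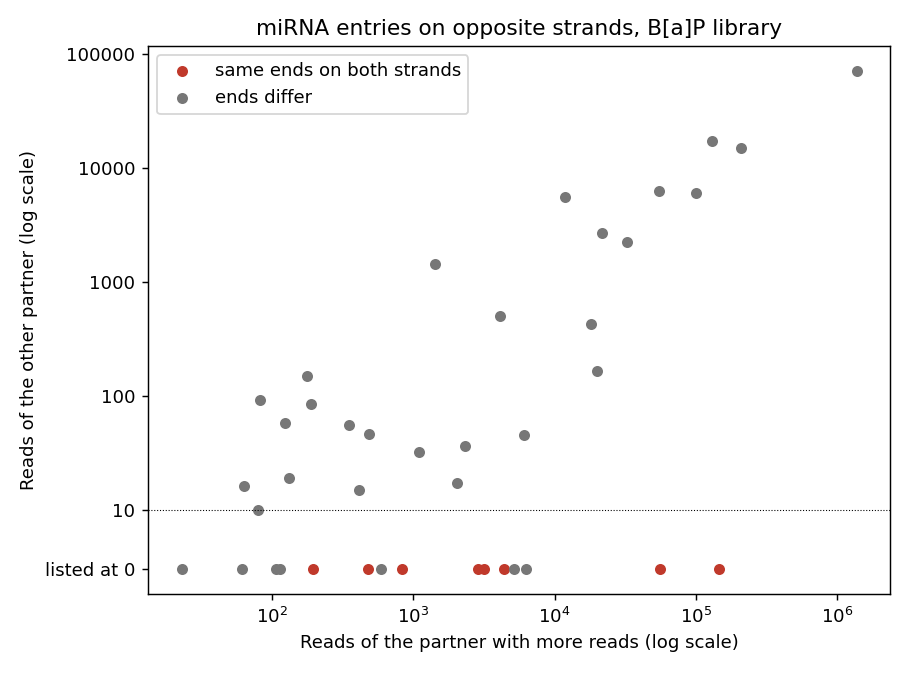
Reads in the B[a]P library for entries that overlap on opposite strands, with the partner that has more reads on the x axis and the other partner on the y axis, both on log scales. Pairs with the same ends on both strands (red) all have 1 partner listed at 0, and pairs with other ends (grey) mostly have reads for both. The dotted line is 10 reads, the smallest number listed.

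The B[a]P and control libraries were set against each other miRNA by miRNA. Of 332 compared miRNAs, 12 (3.61%) differed at least 2-fold, 11 (3.31%) of them with more in the B[a]P library and 1 (0.301%) with less. Those with more were miRNAs of choroid plexus and ciliated cells, with miR-375-3p and miR-200a-3p of the epithelial and endocrine list. In that list only 2 of 6 compared entries had a positive difference. Of the 11 miRNAs with more, miR-1912-3p, miR-204-3p, miR-34b-5p, miR-34b-3p, miR-34c-3p and miR-200a-3p reached 10 RPM in the B[a]P library only. miR-3553, the 1 with less, reached it in the control library only. Such miRNAs were compared only because of the library in which they are high. Most of the 332 were close: 89.2% lay within 1.25-fold and 94.9% within 1.5-fold. The quartiles of the log2 difference were -0.13 and 0.11, and 163 of 332 were above 0. Levels correlated with Pearson's r = 0.985 and Spearman's rho = 0.986 across these miRNAs on the log2 scale, which describes miRNAs of 1 pair of libraries. The counting intervals excluded a ratio of 1 for 189 miRNAs, 90 higher and 99 lower and they say nothing of the spread between animals.

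**Figure D3:**
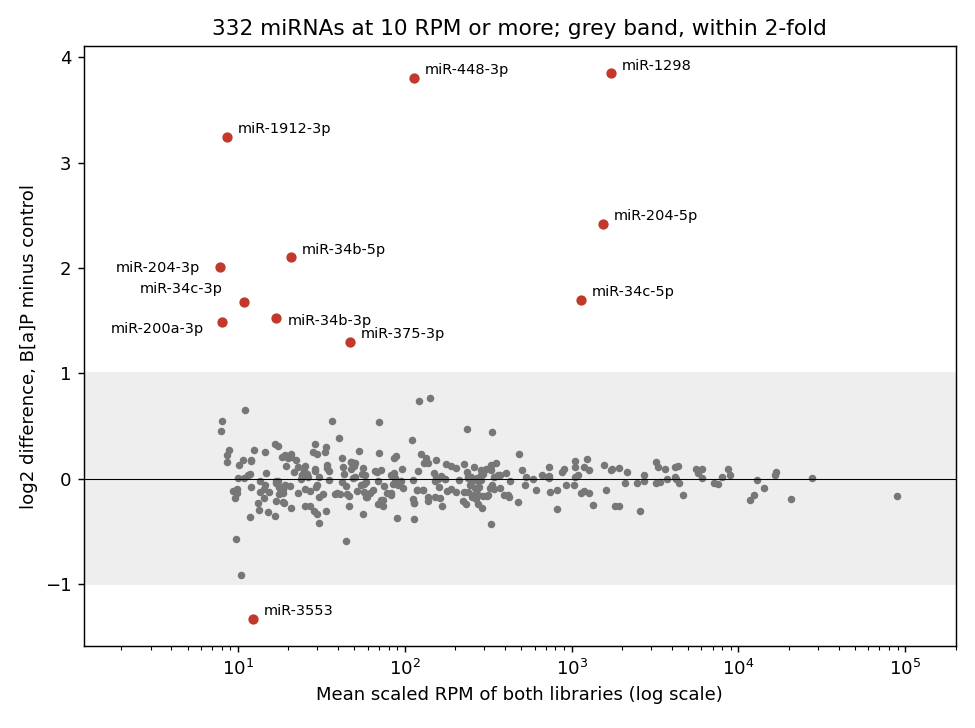
Log2 difference (B[a]P minus control) against the mean scaled RPM of both libraries (log scale) for 332 miRNAs, with a grey band for differences within 2-fold. The 12 miRNAs past 2-fold are red and named, and miR-1298, miR-204-5p and miR-34c-5p combine a large difference with high levels, from 223 scaled RPM upward in each library.

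The miRNAs of the choroid plexus, the epithelium that makes cerebrospinal fluid, differed most. miR-1298 was at 3227 scaled RPM in the B[a]P library and 223 in the control library (52618 and 3198 reads), 14.5-fold higher (13.95 to 14.99). miR-448-3p was at 211.8 and 14.2 scaled RPM (3453 and 204 reads), 14.9-fold higher (12.9 to 17.2). miR-1912-3p was at 16.4 and 0.838 scaled RPM (268 and 12 reads), 19.6-fold higher (11.1 to 38.5). All 3 come from introns of Htr2c, which encodes the serotonin 2C receptor, a gene used strongly in choroid plexus. In GRCr8 the mature miR-1298, miR-448-3p and miR-1912-3p start at positions 115556987, 115642026 and 115498072 of chromosome X. Other products of the locus were under 10 RPM: miR-448-5p had 51 and 17 reads, miR-764-5p 38 and 14, and miR-764-3p 23 and 0. Each was listed with more reads in the B[a]P library.

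miR-204-5p, which maintains the differentiated state of choroid plexus and retinal pigment epithelium, was at 2599.9 and 486 scaled RPM (42386 and 6959 reads), 5.35-fold higher (5.22 to 5.49). Its other arm, miR-204-3p, was at 13.2 and 2.51 scaled RPM (215 and 36 reads), 5.25-fold higher (3.67 to 7.69). miR-211-5p, of the same seed, is known from pigment cells and lies in another gene. It had 119 and 61 reads, a ratio of 1.71 (1.25 to 2.37), and stayed under 10 RPM. Over the list of choroid plexus miRNAs, 6 of 7 names were in the table with 11 entries, of which 9 were above 0 in the B[a]P library and 8 in the control library. The 8 above 0 in both libraries all had more in the B[a]P library, with a median log2 difference of 2.22. Except for miR-211-5p, these are products of the Htr2c locus or arms of miR-204, so they are not separate markers. The list was also chosen with earlier results of these data known, so this count is not independent support. In the control library miR-1912-3p and miR-204-3p were under 10 RPM, so they were compared only because of their level in the B[a]P library. Together the entries held 1.47% of miRNA reads in the B[a]P library and 0.174% in the control library.

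miRNAs of ciliated cells formed the second group. miR-34c-5p, which with miR-34b and miR-449 is needed for motile cilia, was at 1744 and 537 scaled RPM (28429 and 7698 reads), 3.25-fold higher (3.16 to 3.33). miR-34b-5p was at 34.5 and 7.26 scaled RPM (562 and 104 reads), 4.75-fold higher (3.85 to 5.91). Both 3p arms stood above the control too, miR-34c-3p with 279 and 67 reads (log2 difference 1.67) and miR-34b-3p with 420 and 119 (1.52). miR-449a-5p, from another locus with the same seed, had 115 and 39 reads, a ratio of 2.59 (1.79 to 3.83), under 10 RPM. Both arms of miR-449c were listed at 0 in both libraries. Of the list's 8 entries, 5 were above 0 in each library, all 5 with more in the B[a]P library (median log2 difference 1.67). Except for miR-449a-5p, these 5 are arms of miR-34b and miR-34c. Of these only miR-34c-5p reached 10 RPM in the control library. This list too was chosen with earlier results of these data known. Its entries held 0.442% and 0.133% of miRNA reads. miR-34a-5p, the member of the seed family best known as a p53 target, had 822 and 644 reads and a log2 difference of 0.16, far below the differences of miR-34b and miR-34c. Over all entries of the seed the reads were 29928 and 8485, of which miR-34c-5p had the most.

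The remaining miRNAs higher at 2-fold belong to epithelial and endocrine cells. miR-375-3p, of pancreatic islet and pituitary cells, was at 67.2 and 26.7 scaled RPM (1096 and 382 reads), 2.52-fold higher (2.24 to 2.84). miR-200a-3p, which maintains the epithelial state, was at 12.4 and 3.77 scaled RPM (202 and 54 reads), 3.29-fold higher (2.42 to 4.53). Of its relatives under 10 RPM, miR-200b-3p was listed with 122 and 37 reads and miR-429 with 30 and 0. miR-200c-3p, from a second locus, had 74 and 52 reads, and its interval of 0.87 to 1.82 included 1. The list of epithelial and endocrine miRNAs ranged from miR-7b at -0.30 to miR-200a-3p at 1.49. Of its 6 compared entries, 2 had a positive difference (median -0.03), as did 4 of the 8 entries above 0 in both libraries. The list held 5.24% of miRNA reads in the B[a]P library and 5.91% in the control library.

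Next came miRNAs under 2-fold. miR-219a-5p, which promotes maturation of oligodendrocytes, was at 178 and 104 scaled RPM (log2 difference 0.77). miR-152-3p was at 152 and 90.7 (0.74), and miR-10b-5p, of the HoxD locus, was at 13.7 and 8.31 (0.66). miR-339-3p (0.55), miR-455-3p (0.55) and miR-199a-3p (0.54), the last from fibroblasts, followed. At 1.5-fold, 14 miRNAs were higher and 3 lower.

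The only miRNA lower at 2-fold was miR-3553, at 6.56 and 18.0 scaled RPM (107 and 258 reads; log2 difference -1.33). miR-3553 is the complement of miR-183-5p, a miRNA of sensory and pineal cells, which was listed with 0 and 15 reads. Its cluster mates were miR-182, with 279 and 260 reads (-0.08), and miR-96-5p, with 35 and 56 reads and a ratio of 0.55 (0.35 to 0.85). miR-122-5p, the main miRNA of liver, had 114 and 201 reads (-0.91), and its complement miR-3591 had 0 and 20. With partners summed, the miR-183 pair stood at -1.40 and the miR-122 pair at -1.04, which makes 2 entries lower at 2-fold.

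After these, miR-451-5p, of red blood cells, had 577 and 772 reads (-0.59), and miR-205, of stratified epithelium, 125 and 170 (-0.57). miR-129-2-3p, a neuronal miRNA, was at 279 and 376 scaled RPM (-0.43). The list of red blood cell miRNAs held 0.0350% of miRNA reads in the B[a]P library and 0.0448% in the control library. All 3 members compared were below 0, with miR-486 at -0.37 and miR-144-3p at -0.10.

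Lists for the other cell types of hippocampus showed small differences and no member past 2-fold. Of all 332 compared miRNAs 163 (49.1%) were above 0, and a list count near that share is nothing particular to its members. Among neuronal miRNAs, 5 of 23 compared were above 0, with a median of -0.08, from -0.43 for miR-129-2-3p to 0.05 for miR-488-3p, and their share of reads was 10.97% and 10.88%. Of the imprinted Dlk1-Dio3 cluster, the largest miRNA cluster of the rodent brain, 12 of 52 were above 0, with a median of -0.11. It ranged from miR-485-5p at -0.38 to miR-434-3p at 0.23. All 5 oligodendrocyte miRNAs compared were above 0 (median 0.19), as were all 5 of the miR-181 family (0.09). The oligodendrocyte entries are arms of miR-219a and miR-338, with miR-219b, which overlaps miR-219a-2-3p on the opposite strand. They are therefore not separate markers. The X-linked cluster of miR-322, miR-351, miR-450a, miR-450b and miR-542 had all 6 compared entries above 0 (median 0.24; 0.08 to 0.33).

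Of miRNAs of microglia and leukocytes, 1 of 7 was above 0 (median -0.10), and of stress and inflammation miRNAs 1 of 8 (-0.11), with miR-21-5p highest at 0.16 and miR-146b-5p lowest at -0.25. Fibroblast and meningeal miRNAs had 3 of 4 above 0 (median 0.47), and endothelial miRNAs 4 of 5 (0.09). The 3 fibroblast and meningeal entries above 0 were miR-10b-5p and both arms of miR-199a. With RPM as deposited, the median of all compared miRNAs moved by 0.36. Every list or family median below 0 then changed sign, except that of red blood cell miRNAs, at -0.01. Those of the neuronal list and the Dlk1-Dio3 cluster became 0.26 and 0.25. The microglia and leukocyte median became 0.26, and the stress and inflammation median 0.24. The oligodendrocyte and the fibroblast and meningeal medians stayed above 0 under each scaling, at 0.56 and 0.82 with RPM as deposited.

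Families were described in the same way, beside the 49.1% of all compared miRNAs above 0. The let-7 and miR-98 family had 6 of 14 compared entries above 0 (median -0.01), from let-7i-5p at -0.20 to miR-98-5p at 0.13. The miR-99/100 and miR-125 families had 4 of 8 (-0.02), the miR-30 family 4 of 8 (0.02), the miR-29 family 1 of 5 (-0.14) and the miR-23, miR-27 and miR-24 clusters 5 of 7 (0.04). The miR-17-92 cluster and its paralogues, which drive proliferation, had 8 of 10 (0.09), and the miR-15 and miR-16 family, which slows the cell cycle, 5 of 8 (0.14). miRNAs linked to neuronal activity had 5 of 17 (-0.03), smooth muscle and mural cell miRNAs 2 of 4 (0.07), muscle miRNAs 2 of 2 (0.10) and liver miRNAs 1 of 3 (-0.15). Of the list of p53-linked miRNAs, 8 of 10 were above 0 (median 0.16), and its 4 members past 2-fold were those of miR-34b and miR-34c given above. Across 306 compared miRNAs with a sequence, the difference correlated with GC content at r = -0.01 and with length at r = -0.09.

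Arm use was nearly the same in both libraries. Of 302 names with both arms listed, 140 had both arms above 0 in both libraries and at least 100 reads over both arms in each. The 5p arm had more reads for 81 of them in each library, and the log2 ratio of the arms correlated between the libraries with r = 0.998 over 140 names. The 5p share differed by a median of 0.332 percentage points. Selection was strong for many precursors: the minor arm held a median of 4.44% (B[a]P) and 5.05% (control) of reads, under 1% for 30 names in each library, and over 35% for 18 and 16.

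**Figure D4:**
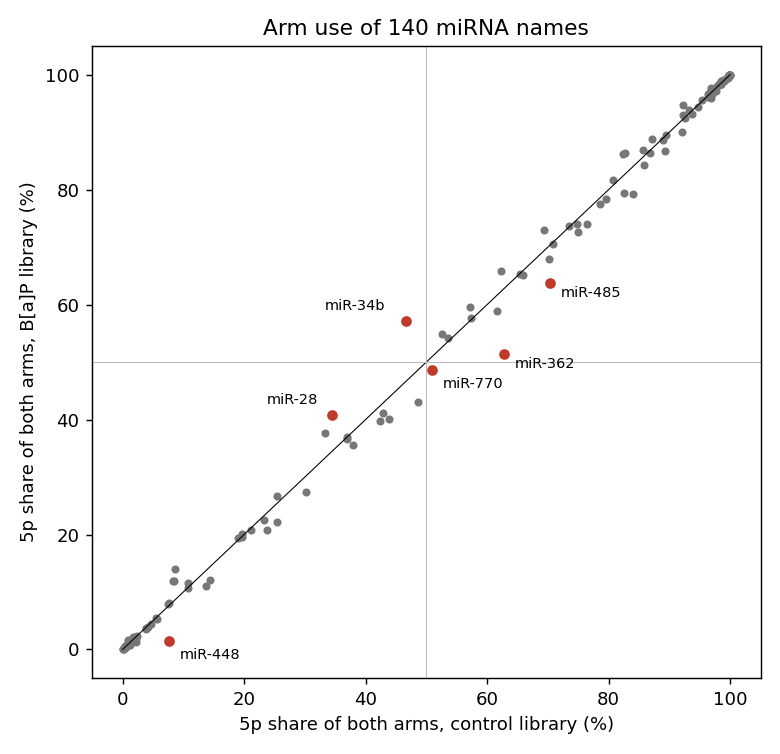
Share of the 5p arm in the reads of both arms, in percent, in the B[a]P library against the control library, 1 point per miRNA name (140). Points lie along the diagonal of equal use, and the red points are miR-448, the 1 name past 2-fold, those with the largest differences in points, and miR-34b and miR-770, which cross 50%.

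The arm ratio differed 2-fold for 1 name (0.714%), miR-448. Its 5p share was 1.46% in the B[a]P library (51 and 3453 reads of 5p and 3p; 1.09% to 1.91%) and 7.69% in the control library (17 and 204 reads; 4.54% to 12.03%). The ratio of 3p to 5p was thus 5.64-fold higher in the B[a]P library (2.9959 to 10.1). The miR-448-5p entry was 2.64-fold higher in the B[a]P library, against 14.9-fold for miR-448-3p.

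At 1.5-fold 7 names (5%) differed. Among them were miR-152, with 1.71% and 0.92% on the 5p arm, miR-540 with 14.1% and 8.66%, and miR-34b. The intervals of miR-152 (0.97 to 3.93), miR-362 (0.97 to 2.61), miR-487b (0.80 to 3.49) and miR-652 (0.87 to 3.05) included 1. miR-219a lay just under 1.5-fold, with a 5p share of 11.9% and 8.23% over 24500 and 18156 reads (1.40 to 1.60). The log2 difference of miR-219a-2-3p was 0.19, against 0.77 for miR-219a-5p. This name has 1 entry for the 5p arm and 2 for the 3p arm. Unequal use of its precursors therefore cannot be told apart from arm use.

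The arm with more reads differed between the libraries for 2 names. miR-34b had 57.2% of reads on the 5p arm in the B[a]P library (54.1% to 60.4%) and 46.6% in the control library (39.9% to 53.4%), a ratio of arms 1.53-fold higher (1.13 to 2.07). miR-770, an imprinted miRNA, had 48.6% and 50.9%, with both intervals including 50%. The largest difference in points was that of miR-362, with 51.5% and 62.8% on the 5p arm over 136 and 156 reads.

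miR-204 and miR-34c, by contrast, had nearly equal arm use in both libraries. miR-204 had 99.5% of reads on the 5p arm in both libraries, over 42601 and 6995 reads. miR-34c had 99.03% and 99.14%, over 28708 and 7765 reads. Their 3p arms, at under 1% of the reads of the hairpin, differed 5.25-fold and 3.66-fold between the libraries, close to the 5.35-fold and 3.25-fold of the 5p arms. Of the 140 names, 22 have an arm that is complementary to an entry on the other strand, and 100 of the 302 names have 1 arm at 0 in both libraries.

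miRNAs listed in a single library were few and low. The B[a]P library alone listed 19, with 10 to 30 reads (median 12), and the control library alone 13, with 10 to 20 reads (median 12). They made up 0.0041% and 0.0027% of miRNA reads. Since the other library could hold up to 9 reads that are listed as 0, and 38 and 44 entries in all lay under 20 reads, these entries lie at the lower limit of the tables. Only miR-429 reached 30 reads.

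By name, a few belong to the groups described above. In the B[a]P library miR-429 (30 reads) is of the miR-200 family and miR-764-3p (23 reads) of the Htr2c locus. miR-194-3p and miR-450a-3p had 19 reads each, miR-483-5p, from an intron of Igf2, 18, and miR-215 and miR-31b 15 each. miR-21-3p and miR-32-3p, passenger arms of commoner miRNAs, had 13. In the control library miR-3591 (20 reads) and miR-183-5p (15 reads) are the strand partners of miR-122-5p and miR-3553. miR-31a-3p and miR-544-3p had 15 reads each, miR-741-3p 13, and miR-16-3p and miR-6328 12. In each library 2 of these entries belong to a strand pair, and summing the pairs left 17 and 11.

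miRNAs from introns can be set beside the messenger RNA of the gene that holds them, which was measured in separate RNA-seq libraries of the same groups as FPKM, a level per transcript length and library size. The mRNA libraries went the other way for the strongest miRNAs. Htr2c had 19.5 (B[a]P) and 29.0 (control) FPKM, while its 3 intronic miRNAs were 14.5-fold to 19.6-fold higher in the B[a]P library. Trpm3, the host of miR-204, was at 5.91 and 6.97 FPKM, and Copz2, the host of miR-152, at 1.01 and 1.87.

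Of 56 listed pairs of a miRNA and a host mRNA, 45 were matched, from 40 hosts. Of the 45, 13 lay on the same side of the middle of their tables and 32 on opposite sides. The log2 differences correlated with r = -0.81 and rho = -0.53, as a description of 45 pairs that share the same 4 libraries and some hosts. Without Htr2c and Trpm3, 41 pairs gave -0.60 and -0.38. Apart from those hosts, Copz2 and its miRNA lay farthest out. Copz2, at 1.01 and 1.87 FPKM, was near the host floor of 1 FPKM, and the correlation without this pair was not computed. Most pairs differed little on either axis, such as miR-126a-3p (0.00) with Egfl7 (4.82 and 4.75 FPKM) and miR-139-5p (0.11) with Pde2a (62.1 and 59.6 FPKM).

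**Figure D5:**
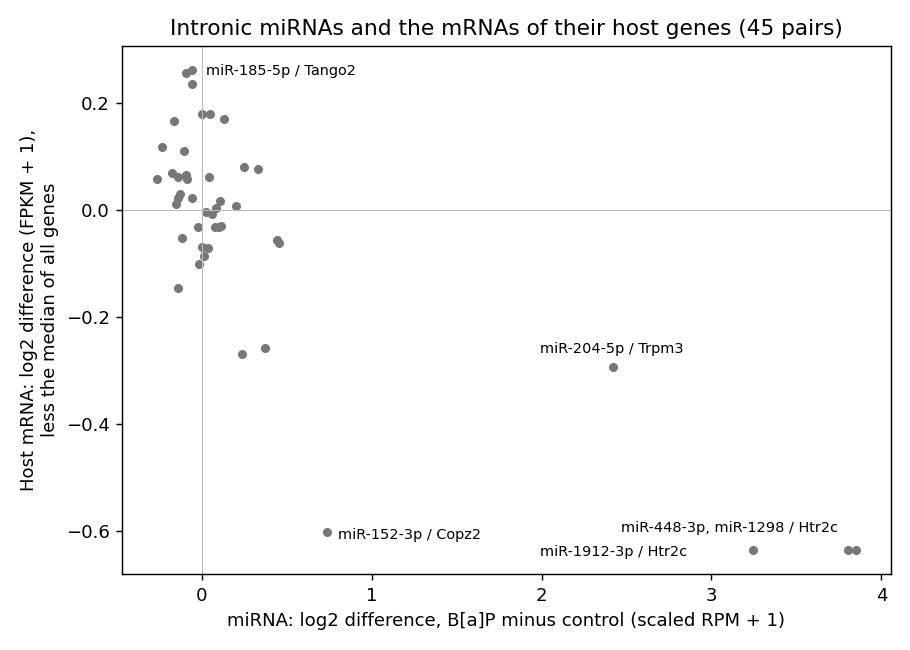
Log2 difference (B[a]P minus control) of host mRNAs, in FPKM + 1 and less the median of all genes, against that of their intronic miRNAs, in scaled RPM + 1, for 45 pairs. The 3 miRNAs of Htr2c and miR-204-5p lie to the right and below 0, and most other pairs lie near the origin.

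Choroid plexus and cilia markers in the RNA-seq libraries showed the same opposition. All 6 choroid plexus mRNAs examined were lower in the B[a]P library, from Ttr, which encodes transthyretin, at 60.5 and 3300.2 FPKM, to Cldn2, a tight junction gene, at 0.403 and 12.3 FPKM. Foxj1, the regulator of motile cilia, was at 1.94 and 4.77 FPKM, and the cilia gene Rsph1 at 1.06 and 2.10 FPKM. In contrast, miR-34c-5p was 3.25-fold higher in the B[a]P library. Of pituitary genes, Pomc was at 1.92 and 7.50 FPKM, Gh1 at 2.48 and 4.95 and Prl at 0.398 and 0.611. The neuronal genes Map2 and Snap25 were at 151 and 111 FPKM and at 305.9 and 250.1 FPKM. For the astrocyte genes Gfap and Slc1a2 the values were 223.8 and 172.1 FPKM and 290.8 and 219.4 FPKM. The oligodendrocyte genes were mixed, with Mbp at 733 and 861 FPKM and Mog at 23.0 and 22.6 FPKM. The labels do not say whether the RNA-seq and miRNA-seq libraries of a group came from the same animals or the same piece of tissue. Whether the group labels of the libraries were exchanged in 1 of the assays was not tested, and an exchange in the miRNA-seq libraries would reverse each direction given here. How much choroid plexus each sample held was not measured apart from these markers, its part in the miRNA differences was not tested, and with 1 library per group it cannot be told apart from the treatment.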

How the data were processed

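Hippocampus was flash frozen, and small RNA was sequenced in 1 B[a]P and 1 control library; groups come from the titles. The authors deposited RPM values per mature miRNA, and mRNA values whose unit no label gives, taken here as FPKM as deposited from their sums. The submitters' processing notes name bcl2fastq, rn5 and rn6 without a role; the aligner, the counting tool and the miRNA annotation are not given in the sources used here. Multi-mapping and strand rules could change values of near-identical or complementary miRNAs.

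Each RPM value, unless 0, is a multiple of the worth of 1 read in its library, which gave numbers of reads and totals. RPM was scaled by the median of ratios over 471 miRNAs above 0 in both libraries. Differences are log2(scaled RPM + 1) for miRNAs at 10 RPM or more as deposited in either library, called at an absolute 1, and folds are ratios without pseudocount. Ratios of reads have exact conditional binomial, shares exact binomial and arm ratios exact conditional 95% intervals. No test was made, with 1 library per group. Locus numbers of 1 name were summed per arm. Strand pairs overlap by 15 bases or more in GRCr8 and were chosen after values were seen. Scaling and calls were run on simulated counts with planted differences and counting error only. This checks the code, not the calls made from 1 library per group. Python 3.11.15, numpy 2.4.6, pandas 2.3.3, scipy 1.17.1 and matplotlib 3.10.9 were used.

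The miRNAs named are the 15 most abundant, those past 2-fold, the 10 highest and 10 lowest differences, the 10 largest arm differences with names whose major arm differs, the 10 with most reads in 1 library only, the extremes of 25 lists, and relatives that share a seed; not all are printed. The members and lists were chosen with earlier results of these data known. Alternatives changed scaling, pseudocount, floor, read minimum, denominator and host level.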

Additional observations from a re-analysis of the deposited data

How the results depend on the processing

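The number of miRNAs higher at 2-fold, 11, was 13 with RPM as deposited and with no floor, and 11 with miRNA reads as the denominator, with TMM factors, with a pseudocount of 0.1 and with strand pairs summed. It was 7 with a pseudocount of 10 and 5 with a floor of 50 RPM, which by construction shrink or leave out low miRNAs. The 1 lower miRNA became 0 with RPM as deposited, with a pseudocount of 10 and with a floor of 50 RPM, and 2 with strand pairs summed. The share of the 10 most abundant was 25.3% (B[a]P) and 21.0% (control) of the library total, 44.9% and 46.6% without the most abundant miRNA, and 55.3% and 57.9% with strand pairs summed. Of arm ratios, 0 differed 2-fold at 1000 reads or more and 7 differed 1.5-fold. With 30 reads or more, 1 miRNA was listed in the B[a]P library alone and 0 in the control library alone. The share of host pairs on the same side, 28.9%, was 25.9% to 31.7%. TMM factors from edgeR were not run and were computed from the formula instead; this setting, the strand sums, and the host pairs without Htr2c and Trpm3 or with 1 pair per host were added after seeing the data. No paired analysis was possible because each group has 1 library. Depth limits miRNAs under 10 reads, which are listed as 0.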
